A study of Mus musculus with 16 samples.

Results

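Mitochondrial ribosomal proteins were taken as the genes whose symbol begins with Mrpl or Mrps followed by a number and that were detected, with a p under 0.01 for an array probe, on 4 or more of the 16 arrays. The symbol matched 76 genes with 110 probes, and 68 genes with 88 probes passed the detection rule, out of 6902 genes tested in all. By symbol, 42 of the 47 large subunit (Mrpl) genes and 26 of the 29 small subunit (Mrps) genes were measured. The arrays were single-colour Illumina mouse arrays hybridised with left ventricular RNA of male mice, 1 heart per array and 4 hearts for each of 4 genotypes. Littermate controls were set beside mice with Myh6-TRAF2LC, mice with Myh6-IκBαΔN and Myh6-TRAF2LC/Myh6-IκBαΔN double transgenic mice. These groups are called control, TRAF2LC, IkBaDN and double transgenic. Both transgenes are driven by the promoter of Myh6, the alpha myosin heavy chain, which is active in cardiomyocytes. TRAF2 relays signals from TNF receptors, and the mutated IκBα belongs to the inhibitors of NF-kB. No age, line number or treatment is given in the labels used here. The series title concerns cardiac protection by TRAF2 and non-canonical NF-kB, and the comparisons below ask whether the nuclear genes of the mitochondrial ribosome differ among these hearts.

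Mitochondria hold their own ribosome, which makes the few membrane proteins of the respiratory chain and ATP synthase that are encoded in mitochondrial DNA. Its RNAs come from the mitochondrial genome, whereas all of its proteins are encoded in the nucleus, made in the cytosol and imported. The small subunit reads the messenger RNA and the large subunit forms the peptide bond, and the finished chain leaves through an exit tunnel facing the inner membrane. Some of the proteins descend from bacterial ribosomal proteins and others exist only in mitochondria. The heart depends on oxidative phosphorylation, and inherited defects of human mitochondrial ribosomal proteins, MRPL3 and MRPS22 among them, are known causes of cardiomyopathy.

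Promoters of 3 genes are shown first. Mrps18a is the single gene with a called difference below, Mrpl14 is the gene called beside it when the replicate number enters the fit, and Mrpl17 is the only one of the 3 that holds 2 kinds of the motifs searched. Each sequence is the 250 bases before the gene's RefSeq start in assembly GRCm38.p6, on the gene's own strand from 5′ to 3′, and capitals mark the motif CCGGAAG, a core bound by ETS factors such as GABP, or the core motif of NRF1, a regulator of nuclear genes for mitochondria. Mrps18a lies at chr17:46110754-46111003 on the plus strand, with CCGGAAG starting 26 bases before the start of the gene. Mrpl14 lies at chr17:45686099-45686348 on the plus strand and has none of these letters in the window. Mrpl17 lies at chr7:105811088-105811337 on the minus strand, with CCGGAAG 237 and the NRF1 core 49 bases before the start.
Mrps18a: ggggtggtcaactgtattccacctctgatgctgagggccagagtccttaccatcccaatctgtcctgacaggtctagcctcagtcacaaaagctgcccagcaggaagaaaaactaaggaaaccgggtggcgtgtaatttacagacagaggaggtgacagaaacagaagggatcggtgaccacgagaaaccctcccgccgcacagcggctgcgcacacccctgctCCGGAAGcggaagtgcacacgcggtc
Mrpl14: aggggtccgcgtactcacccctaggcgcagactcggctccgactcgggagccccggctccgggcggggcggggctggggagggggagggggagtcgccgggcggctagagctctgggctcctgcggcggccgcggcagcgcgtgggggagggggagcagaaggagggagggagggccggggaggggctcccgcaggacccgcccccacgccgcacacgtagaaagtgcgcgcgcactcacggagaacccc
Mrpl17: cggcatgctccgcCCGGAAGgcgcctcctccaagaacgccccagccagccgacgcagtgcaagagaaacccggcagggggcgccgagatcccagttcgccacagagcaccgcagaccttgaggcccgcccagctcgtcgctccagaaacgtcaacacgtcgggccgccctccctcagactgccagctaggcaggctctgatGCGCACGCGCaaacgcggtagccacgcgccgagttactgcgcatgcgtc

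RefSeq promoters were matched for 61 of the 68 genes, and Mrpl4, Mrpl13, Mrpl38, Mrpl54, Mrps28, Mrps34 and Mrps35 had no entry. Searched on both strands of these 250 bases, CCGGAAG was found in 17 of the 61 promoters (27.9%) and in 7.05% of all 27025 RefSeq promoters of the same length. The NRF1 core was found in 7 (11.5%, against 3.86% of all). AAGATGGCG, the core bound by YY1, was found in 2 (3.28%, against 0.607% of all). In all, 25 of the 61 held at least 1 of these motifs, of which the ETS and YY1 cores can overlap by a few letters. CCGGAAG stood in 11 of 38 large subunit and 6 of 23 small subunit promoters. Median GC content was 58.4% in the genes' promoters and 52.0% in all promoters. These are descriptions of letters in a window, and no binding was measured.

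Most of the genes gave a clear signal in the ventricle, and 64 of the 68 were detected on all 16 arrays. In control hearts the brightest large subunit probes were those of Mrpl42, a mitochondria-specific protein, at 12.98 ± 0.07 (SD, n = 4), Mrpl28 at 12.31 ± 0.04 and Mrpl12, the stalk protein that contacts translation factors, at 12.20 ± 0.17. The brightest small subunit probes were those of Mrps24 at 12.84 ± 0.15, Mrps34 at 12.04 ± 0.08 and Mrps33 at 11.53 ± 0.03. The dimmest large subunit probes belonged to Mrpl45, a tunnel exit protein, at 5.21 ± 0.29, Mrpl57 at 5.93 ± 0.33 and Mrpl52 at 5.96 ± 0.36. Among the small subunit genes the dimmest were Mrps2 at 5.89 ± 0.17, Mrps27 at 6.84 ± 0.18 and Mrps18c at 6.98 ± 0.36. Brightness depends on the probe, so no order of RNA amount between genes is read from these levels.

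Detection fell short of all arrays for 4 of the genes. Mrpl45 lies just inside the rule, detected on 5 arrays: 0 of control, 3 of TRAF2LC, 0 of IkBaDN and 2 of double transgenic hearts. It thus passed the rule only through TRAF2LC and double transgenic arrays. With control arrays raised to their own detection limits, the TRAF2LC mean was 1.07-fold that of control. The undetected TRAF2LC array kept its measured value, so this is not a strict lower bound. Set up the same way, the double transgenic mean was 0.90-fold that of control and 0.85-fold that of IkBaDN. The measured double transgenic mean was the higher one, at 5.44 against 5.21 in control and 5.32 in IkBaDN. Only the control and IkBaDN arrays were raised, so these 2 ratios give no direction of change. The test of the measured values of TRAF2LC against control did not pass (adjusted p = 0.395, limma). Mrpl52 and Mrps2 were each detected on 14 arrays and Mrpl57 on 15. Just outside the rule were Mrpl15, Mrpl19, Mrpl21, Mrpl32, Mrpl39, Mrps14, Mrps15 and Mrps36. None of these 8 was detected on more than 1 array, and 5 were detected on 0. Mrps36, despite its symbol, is now known as a subunit of the 2-oxoglutarate dehydrogenase complex.

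Across the 4 genotypes the mitochondrial ribosomal protein genes stayed within a narrow range. The largest difference between any pair of measured genotype means was under 0.5 on the log2 scale for 68 of the 68 genes, as it was for 87.4% of all tested genes. The median of that range was 0.23 for these genes and 0.27 for all genes. It was smaller still for 55 cytosolic ribosomal protein genes (0.185) and 70 oxidative phosphorylation genes (0.177), so a narrow range was not particular to the mitochondrial ribosome. The mitochondrial ribosomal protein genes were also brighter than all genes (median level 9.77 against 7.56), and the part of brightness was not tested. The median SD within a genotype was 0.163 against 0.220 over all genes. Taken by its brightest probe, Mrpl3 had the smallest range of genotype means, 0.045. Its other tested probe stood at -0.26, -0.24 and -0.34 against control in TRAF2LC, IkBaDN and double transgenic hearts. Among the 67 genes detected on at least 1 array of every genotype, which leaves out Mrpl45, the widest ranges were those of Mrps18a, Mrpl14 and Mrps5 at 0.479, 0.428 and 0.401. Within genotypes Mrps34 and Mrpl42 varied least (SDs of 0.07 and 0.09) and Mrpl20 most (0.52). Mrpl20, a large subunit protein of bacterial descent, followed the position of the arrays in the deposited table, where each genotype has 2 arrays in the first 8 columns and 2 in the last 8. The first 8 ranged from 6.35 to 6.94 and the last 8 from 7.29 to 7.71, apart from IkBaDN replicate 2 at 6.33. With the genotypes in the fit Mrpl20 was 0.69 ± 0.16 (SE) higher in the last 8 columns (adjusted p = 0.00981, limma), and its SD was 0.35 once the column sets were fitted. Of the 68 genes, 9 were called between the column sets, 7 of them higher in the last 8, against 13.1% of all probes, a comparison chosen after seeing the data. The labels do not say what the columns' order stands for.

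**Figure D1:**
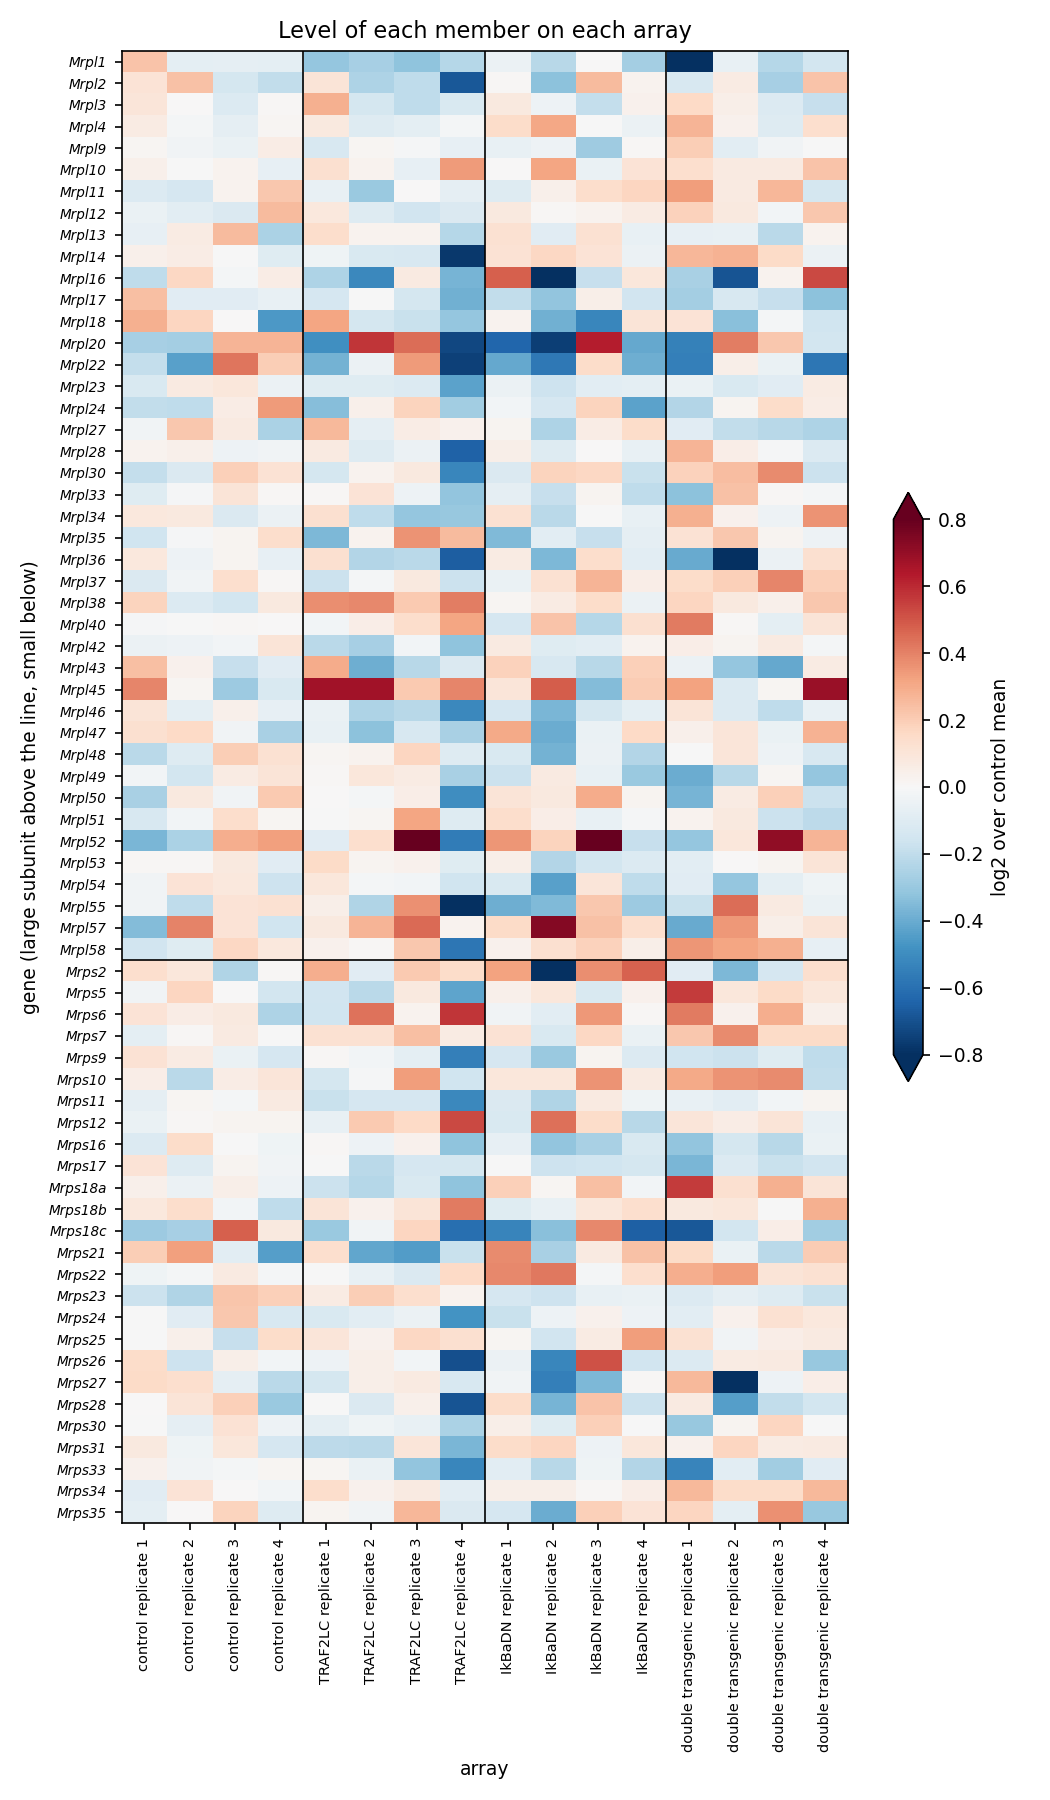
Heat map of the 68 genes (rows, large subunit above the horizontal line and small subunit below) on the 16 arrays (columns, grouped by genotype), coloured by log2 level over the gene's control mean from -0.8 (blue) to 0.8 (red). Pale colours fill most of the map, TRAF2LC replicate 4 shows the most blue, and Mrpl20 is red or blue within each genotype.

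Called means a limma p adjusted over all 9449 tested probes under 0.05, and each gene is represented by its brightest tested probe. Of the 68 genes, 0 were called between TRAF2LC and control hearts, where 1.04% of all probes were. The count was also 0 between IkBaDN and control (0.444% of all probes), between double transgenic and control (0.847%) and between double transgenic and IkBaDN hearts (0.0106%). It was 1 between double transgenic and TRAF2LC hearts (2.91% of all probes in either direction, 1.32% higher). The interaction, which is the effect of TRAF2LC with the IkBaDN transgene minus its effect without it, gave 0 (0.0212% of all probes), and the moderated F-test of any difference among the 4 genotypes gave 0 (2.97%). At an unadjusted limma p under 0.05 the counts were 5, 0, 5, 0 and 9 of the 68 in the same order of pairs, against 10.7%, 7.65%, 10.8%, 5.78% and 15.6% of all probes. They were 3 in the interaction (6.21% of all probes) and 3 in the F-test (14.6%). Over all 88 tested probes of these genes the counts were 7, 4, 8, 1 and 12 in the same order of pairs. They were 5 in the interaction and 5 in the F-test. In TRAF2LC against control the 5 genes and 7 probes include Mrpl45, which passed the detection rule only through TRAF2LC and double transgenic arrays. The comparisons with control share the 4 control arrays, and those with double transgenic hearts share the 4 double transgenic arrays.

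How large a difference the data could still hold is shown by the 95% intervals of the changes. The interval reached a median of 0.26 to either side of the estimate on the log2 scale. In TRAF2LC against control the whole interval lay within 1.5-fold either way for 54 of the 68 genes and within 2-fold for all 68. Against control the whole interval was within 1.5-fold for 59 genes in IkBaDN and for 59 in double transgenic hearts, and within 2-fold for 68 in both. In double transgenic hearts the counts within 1.5-fold were 53 against TRAF2LC and 61 against IkBaDN. Mrpl45 is counted there with its measured values. Among the other 67 genes the largest estimated changes in either direction against control were those of Mrpl38 in TRAF2LC (1.27-fold), Mrpl57 in IkBaDN (1.24-fold) and Mrpl36 in double transgenic hearts (1.28-fold). Intervals of the interaction are wider, and 37 genes lay within 1.5-fold and 62 within 2-fold.

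**Figure D2:**
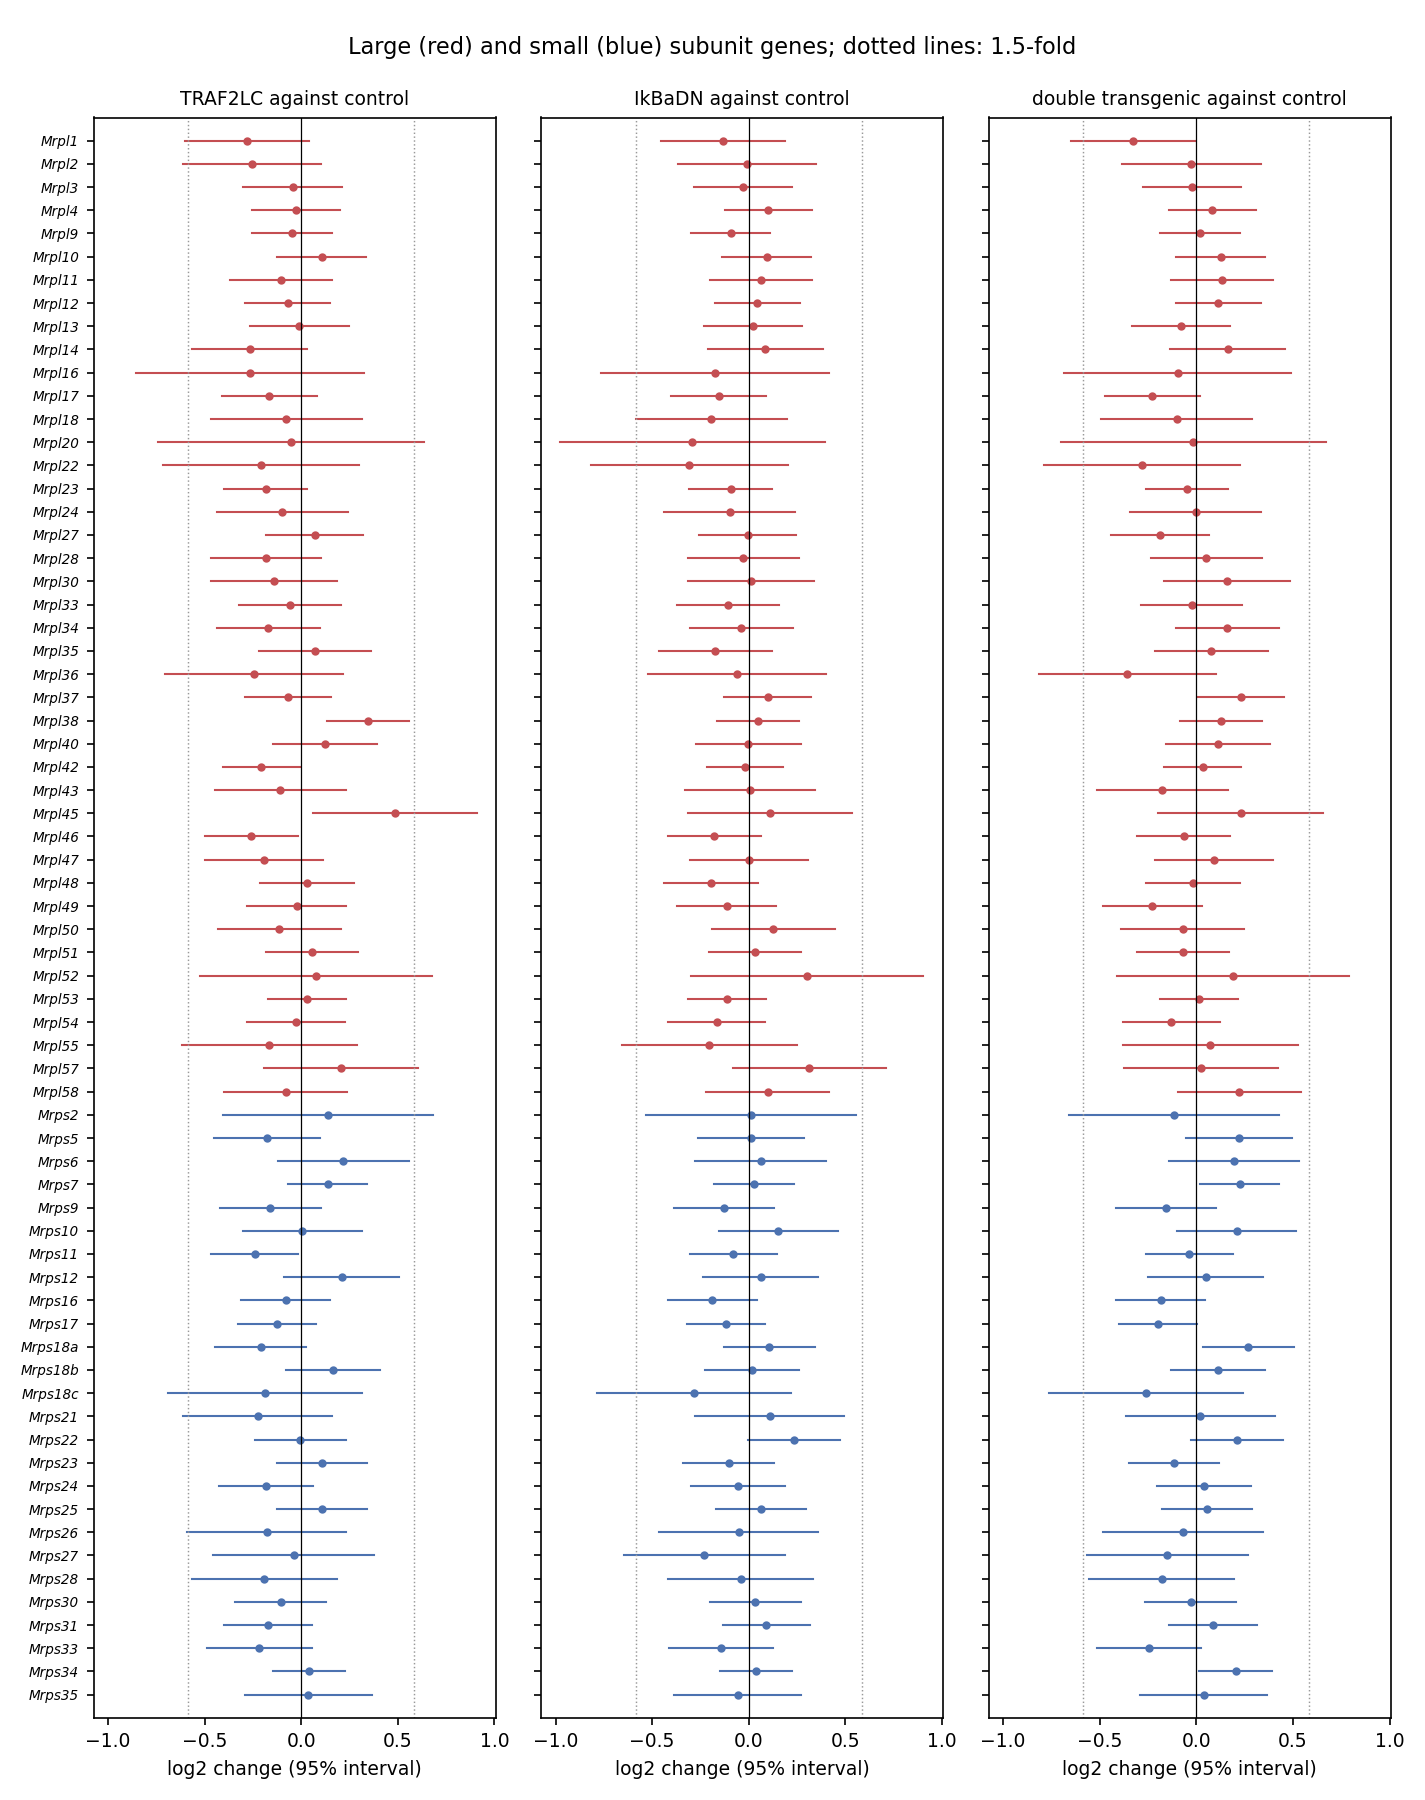
Log2 change of each gene (rows) against control in TRAF2LC, IkBaDN and double transgenic hearts (panels), with limma 95% intervals, large subunit in red, small subunit in blue, and dotted lines at 1.5-fold. Mrpl45 is drawn at its measured values, although it was detected on 0 control and 0 IkBaDN arrays. Every interval stays within 2-fold, and 54, 59 and 59 of the 68 intervals lie between the dotted lines.

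Double transgenic hearts had more Mrps18a RNA than TRAF2LC hearts. Mrps18a is one of the mammalian relatives of bacterial S18, and despite its symbol the protein sits in the large subunit. Its levels were 11.01, 10.92, 11.02 and 10.93 on the log2 scale in the 4 control hearts and 10.80, 10.74, 10.85 and 10.65 in TRAF2LC hearts. They were 11.16, 10.99, 11.21 and 10.95 in IkBaDN hearts and 11.53, 11.10, 11.25 and 11.08 in double transgenic hearts. The 4 TRAF2LC arrays were the lowest of all 16, and the double transgenic arrays lay above those of TRAF2LC and of control without overlap, while the IkBaDN arrays overlapped those of control and of double transgenic hearts. Against TRAF2LC, Mrps18a rose 1.39-fold in double transgenic hearts (log2 change 0.48 ± 0.11, SE, n = 4 per genotype, 95% interval 0.24 to 0.71, adjusted p = 0.0246). Double transgenic hearts were 0.27 ± 0.11 above control (adjusted p = 0.388), and TRAF2LC hearts differed from control by -0.21 ± 0.11 (adjusted p = 0.538). The interaction was 0.37 ± 0.16 (adjusted p = 0.776) and the F-test gave an adjusted p of 0.0923. Within the first 8 columns of the deposited table the double transgenic mean was higher by 0.58, and within the last 8 by 0.38. The labels hold a number ending in P of unstated meaning that falls into 3 runs, and within the run holding both genotypes the difference was 0.35. By deviations from the genotype means, same-numbered arrays of these 2 genotypes correlated at 0.25 to 0.31. Other-numbered arrays of the same column set correlated at 0.10 to 0.37, so the numbers cannot be said to pair the arrays. With the replicate block the adjusted p was 0.0132 for Mrps18a and 0.0496 for Mrpl14, so that 2 genes were called. As that block was chosen from these data, its p-values add no separate evidence. With the column sets as a block the adjusted p of Mrps18a was 0.021. With the P runs as a block it was 0.0543, with only these 2 genotypes fitted it was 0.118, with median scaling in place of quantile normalization 0.786, and leaving out single arrays gave 0.0255 to 0.0778 (0.0623 without TRAF2LC replicate 2, 0.0718 without TRAF2LC replicate 4, 0.0778 without double transgenic replicate 1 and 0.0663 without double transgenic replicate 3).

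**Figure D3:**
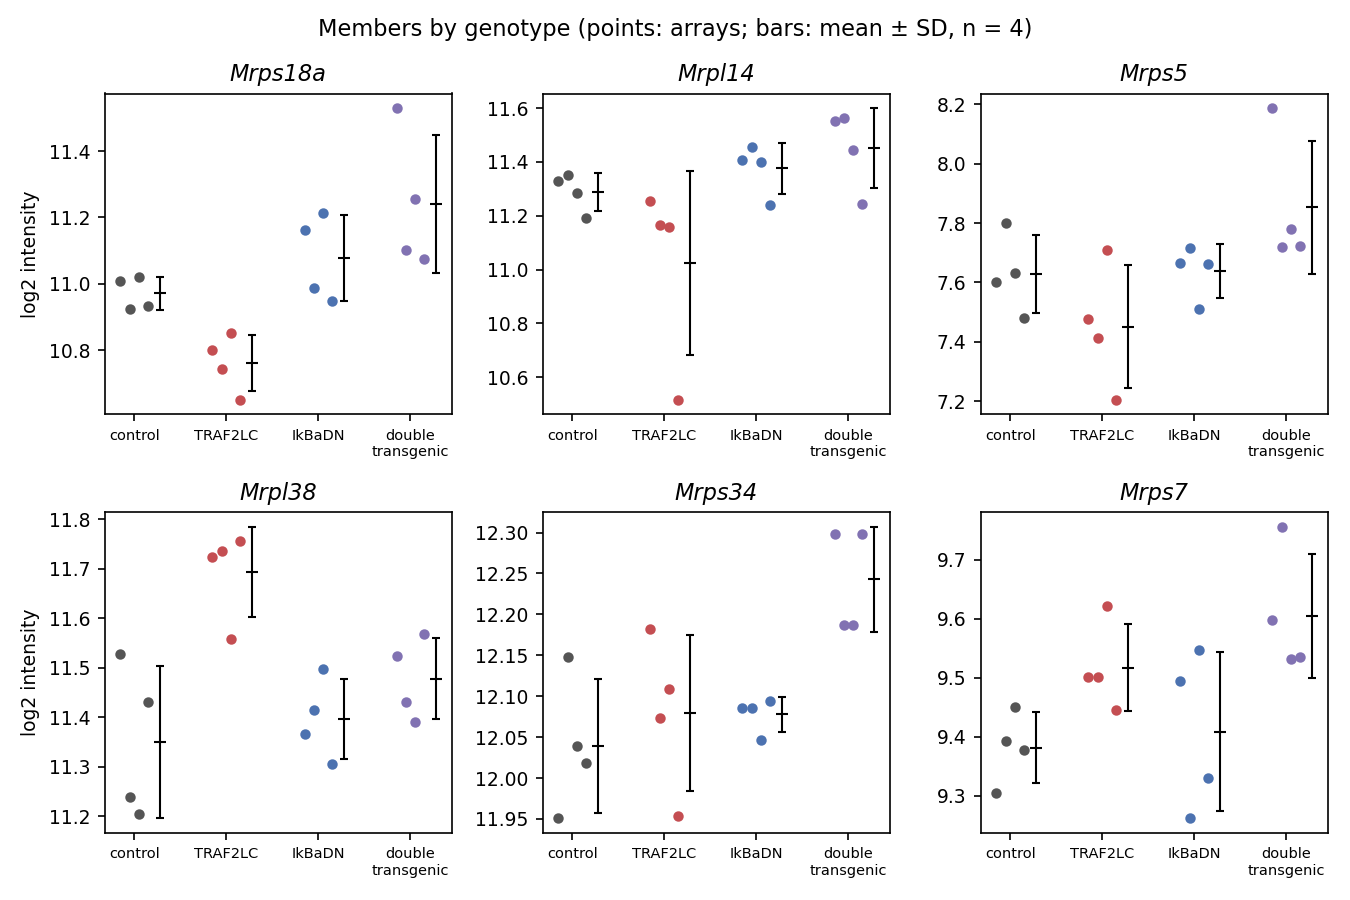
Log2 intensity of 6 genes by genotype, with 1 point per array and bars for the mean ± SD (n = 4); the vertical axis differs between panels and does not start at 0. Mrps18a is low in all 4 TRAF2LC hearts, 1 TRAF2LC heart lies far below the others for Mrpl14, and 1 double transgenic heart lies far above the others for Mrps5.

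After Mrps18a, the next smallest p between double transgenic and TRAF2LC hearts belonged to Mrps5 and Mrpl14. Mrps5 is the small subunit protein related to bacterial S5. Its levels were 7.60, 7.80, 7.63 and 7.48 in control, 7.48, 7.41, 7.71 and 7.21 in TRAF2LC, 7.67, 7.72, 7.51 and 7.66 in IkBaDN and 8.19, 7.72, 7.78 and 7.72 in double transgenic hearts. The double transgenic arrays lay just above those of TRAF2LC, and replicate 1 stood apart from the other 3. The change was 0.40 ± 0.13 (adjusted p = 0.122), and 0.29 without double transgenic replicate 1. Mrpl14, the relative of bacterial L14 at the face between the subunits, measured 11.33, 11.35, 11.29 and 11.19 in control and 11.25, 11.17, 11.16 and 10.52 in TRAF2LC hearts. It measured 11.41, 11.46, 11.40 and 11.24 in IkBaDN and 11.55, 11.57, 11.44 and 11.25 in double transgenic hearts. TRAF2LC replicate 4 was far below the other 15 arrays. The change against TRAF2LC was 0.43 ± 0.14 (adjusted p = 0.125, and 0.0496 with the replicate block), and 0.26 without that array. Among the genes that were lower, Mrpl27, which reaches towards the peptidyl transferase centre, differed by -0.26 ± 0.12 (adjusted p = 0.309), Mrpl38 by -0.22 ± 0.10 (adjusted p = 0.31) and Mrps23 by -0.22 ± 0.11 (adjusted p = 0.361). Arrays of the 2 genotypes did not overlap for 7 genes that were higher in double transgenic hearts (5.46% of all probes) and 2 that were lower (4.52%). The 7 were Mrpl37, Mrpl42, Mrpl47, Mrps5, Mrps11, Mrps18a and Mrps34, and the 2 were Mrpl27 and Mrps23.

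In TRAF2LC against control hearts the smallest p belonged to Mrpl38, a mitochondria-specific protein of the central protuberance, the crown of the large subunit. Its levels were 11.53, 11.24, 11.21 and 11.43 in control, 11.72, 11.74, 11.56 and 11.76 in TRAF2LC, 11.37, 11.41, 11.50 and 11.31 in IkBaDN and 11.52, 11.43, 11.39 and 11.57 in double transgenic hearts. Each TRAF2LC array lay above each control array, whereas 1 double transgenic array lay above the lowest TRAF2LC array. The change was 0.34 ± 0.10 (1.27-fold, adjusted p = 0.163). The next higher genes were Mrpl45, given above with its detection limits, and Mrps12, a protein of the decoding centre, at 0.21 ± 0.14 (adjusted p = 0.673). The lower genes with the smallest p were Mrpl46, also of the central protuberance (-0.26 ± 0.11, adjusted p = 0.427), Mrps11 (-0.24 ± 0.11, adjusted p = 0.427) and Mrpl42 (-0.21 ± 0.09, adjusted p = 0.441). Mrps11 measured 9.34, 9.42, 9.40 and 9.48 in control and 9.23, 9.27, 9.27 and 8.89 in TRAF2LC hearts. These arrays did not overlap, and TRAF2LC replicate 4 was again the lowest. Arrays did not overlap for 1 gene that was higher, Mrpl38 (3.97% of all probes), and for 3 that were lower, Mrpl1, Mrps11 and Mrps18a (3.11%).

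The double transgenic hearts against control named 4 genes with unadjusted p under 0.05 beside Mrps18a: Mrps34, Mrps7, Mrpl37 and Mrpl1. Mrps34, a mitochondria-specific small subunit protein mutated in human Leigh syndrome, measured 11.95, 12.15, 12.04 and 12.02 in control and 12.30, 12.19, 12.19 and 12.30 in double transgenic hearts. TRAF2LC and IkBaDN arrays ranged from 11.95 to 12.18, so all 4 double transgenic arrays were the highest of the 16. The change was nevertheless small, 0.20 ± 0.09 (1.15-fold, adjusted p = 0.415). Mrps7, a protein of the small subunit head, was 0.22 ± 0.10 higher (adjusted p = 0.415), with 9.30, 9.39, 9.45 and 9.38 in control and 9.60, 9.76, 9.53 and 9.53 in double transgenic hearts. The control and double transgenic values of Mrps7 did not overlap. Mrpl37, a mitochondria-specific protein, differed by 0.23 ± 0.11 (adjusted p = 0.448). Mrpl1, the relative of bacterial L1 in the stalk at the tRNA exit, measured 10.05, 9.74, 9.75 and 9.74 in control and 8.93, 9.76, 9.59 and 9.68 in double transgenic hearts. The groups overlapped and double transgenic replicate 1 alone was far lower, so the change of -0.33 ± 0.15 (adjusted p = 0.452) was -0.14 without it. Mrps17 (-0.20 ± 0.10, adjusted p = 0.47) and Mrpl17 (-0.23 ± 0.12, adjusted p = 0.504) followed. Arrays did not overlap for 6 genes that were higher, Mrpl10, Mrpl37, Mrps7, Mrps18a, Mrps22 and Mrps34 (4.70% of all probes), and 3 that were lower, Mrpl17, Mrps17 and Mrps33 (3.79%).

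Between IkBaDN and control hearts 0 of the genes had an unadjusted limma p under 0.05 by their brightest probes, whereas 4 of the 88 tested probes did. The smallest p was that of Mrps22, a mitochondria-specific small subunit protein. Its levels were 9.12, 9.13, 9.22 and 9.13 in control and 9.54, 9.57, 9.14 and 9.29 in IkBaDN hearts, so the groups overlapped with 3 IkBaDN arrays above all controls. The change was 0.23 ± 0.11 (adjusted p = 0.662). Under median scaling it was -0.03, where the median of all genes was -0.23. Mrpl57 (0.31 ± 0.19, adjusted p = 0.768) and Mrpl52 (0.30 ± 0.28, adjusted p = 0.895) were the next higher genes, both dim. Mrps16 (-0.19 ± 0.11, adjusted p = 0.758), Mrpl48 (-0.20 ± 0.11, adjusted p = 0.763) and Mrpl46 (-0.18 ± 0.11, adjusted p = 0.794) were lower with the smallest p. By brightest probes, no gene was higher without overlap of the arrays (2.83% of all probes), and 1 was lower, Mrps33 (2.32%). Of the 88 tested probes of the genes, 4 were lower without overlap.

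Double transgenic against IkBaDN hearts also gave 0 genes with an unadjusted limma p under 0.05 by brightest probes, and 1 of the 88 tested probes. Mrps7 was 0.20 ± 0.10 higher (adjusted p = 0.852), Mrps34 0.17 ± 0.09 higher (adjusted p = 0.853) and Mrpl35, the relative of bacterial L35, 0.25 ± 0.14 higher (adjusted p = 0.859). The lower genes with the smallest p were Mrpl57 (-0.29 ± 0.19), Mrpl27 (-0.18 ± 0.12) and Mrpl36 (-0.30 ± 0.22), each with an adjusted p of 0.909. Under median scaling these genes stood at 0.0086, 0.23 and 0.094, still below the median of all genes there, 0.35. Arrays did not overlap for 3 genes that were higher, Mrpl35, Mrps5 and Mrps34 (1.56% of all probes), and for 0 that were lower (1.37%). In the interaction, Mrpl46 (0.37 ± 0.16, adjusted p = 0.776) and Mrps5 (0.39 ± 0.18, adjusted p = 0.793) stood beside Mrps18a on the positive side. Mrpl57 (-0.50 ± 0.27, adjusted p = 0.839), Mrpl38 (-0.26 ± 0.14, adjusted p = 0.84) and Mrpl27 (-0.25 ± 0.17, adjusted p = 0.871) had the smallest p on the negative side. Under median scaling Mrpl27 stood at 0.01 in the interaction, where the median of all genes was 0.21.

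The medians of the large and small subunit genes were then set side by side. In TRAF2LC against control hearts 31 of 42 large and 16 of 26 small subunit genes had an estimate below 0, and the median log2 changes were -0.07 and -0.09, against -0.01 over all 6902 tested genes. In IkBaDN hearts the medians were -0.02 and 0.01 (all genes -0.01), and in double transgenic hearts 0.00 and 0.03 (all genes 0.00). Leaving out single arrays moved the IkBaDN medians between -0.06 and 0.00 (large) and between -0.06 and 0.05 (small), and the double transgenic medians between -0.02 and 0.03 and between -0.02 and 0.05, so that the sign of each rests on single arrays. With arrays weighted by their quality the TRAF2LC medians were -0.03 and -0.04. Double transgenic hearts had medians of 0.04 and 0.01 against TRAF2LC (all genes 0.01) and of 0.07 and 0.00 against IkBaDN (all genes 0.01). The interaction had medians of 0.15 and 0.07 (all genes 0.02), and 0.04 and -0.01 without TRAF2LC replicate 4 and IkBaDN replicate 2. Placing Mrps18a and Mrps30 in the large subunit, where their proteins are found, gave medians of -0.08 and -0.06 in TRAF2LC hearts. Mrps30 itself averaged 10.01 ± 0.08 (SD, n = 4) in control hearts, with 9.90 ± 0.10 for TRAF2LC, 10.04 ± 0.12 for IkBaDN and 9.98 ± 0.20 for double transgenic hearts.

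The balance between the subunits was examined heart by heart. The median of the large subunit genes, each taken over its control mean, minus that of the small subunit genes lay between -0.09 and 0.06 on all 16 arrays. It averaged -0.01 ± 0.03 (SD, n = 4) in control hearts, with -0.03 ± 0.05 for TRAF2LC, 0.00 ± 0.06 for IkBaDN and -0.03 ± 0.06 for double transgenic hearts. The ranges of all 4 genotypes overlapped. Large subunit medians were above small subunit medians on 6 arrays and below on 10.

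**Figure D4:**
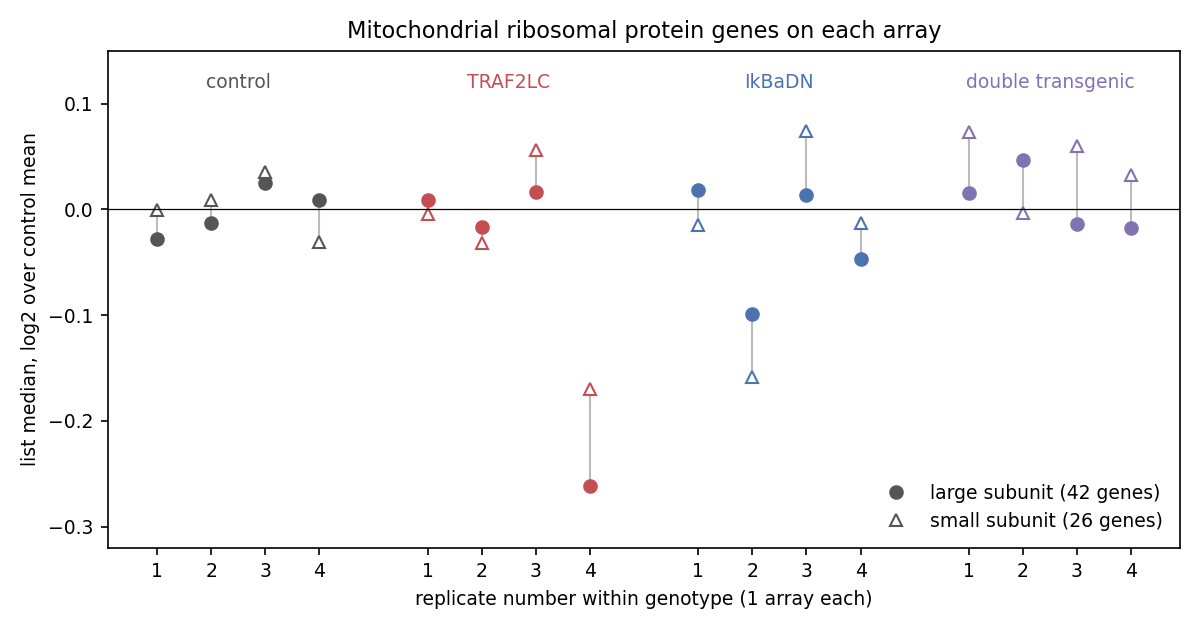
Median log2 level over the control mean of the 42 large (filled circles) and 26 small (open triangles) subunit genes on each of the 16 arrays, grouped by genotype, with a line joining both values of an array. TRAF2LC replicate 4 (-0.26 and -0.17) and IkBaDN replicate 2 (-0.10 and -0.16) lie below the other arrays, and the paired values stay within 0.09 of each other.

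Of the 16 arrays, 2 stood below the rest. On TRAF2LC replicate 4 the large and small subunit medians were -0.26 and -0.17, and 53 of the 68 genes lay below their control mean. On IkBaDN replicate 2 the medians were -0.10 and -0.16, and 45 genes lay below. On the other 14 arrays both medians lay between -0.05 and 0.07. TRAF2LC replicate 4 was the lowest of its genotype for 42 genes and IkBaDN replicate 2 for 33. Without TRAF2LC replicate 4 the TRAF2LC medians against control were -0.02 for both subunits. That array had the lowest median correlation with the others (0.964) and the most probes detected (9397 of 25697), and the median of 7 measured macrophage markers stood 1.01 above control there. Its medians were -0.25 for 7 ventricular cardiomyocyte markers, -0.65 for 5 atrial markers, -0.48 for 6 smooth muscle and pericyte markers and -0.19 for 70 oxidative phosphorylation genes. IkBaDN replicate 2 had the lowest mean signal (129, against 204 to 375 on the other arrays) and the fewest probes detected (7948), with marker medians of 0.03 (ventricular), -0.29 (atrial), 0.10 (smooth muscle and pericyte) and 0.38 (macrophage). The part of these features in the lower medians was not tested.

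Of the cell type markers, the 7 measured ventricular cardiomyocyte genes had summed intensities of 123900 to 132600 in control, 116900 to 125600 in TRAF2LC, 125600 to 133500 in IkBaDN and 119000 to 130400 in double transgenic hearts. All 5 atrial markers were measured as well, with sums of 77580 to 79970 in control, 63740 to 80810 in TRAF2LC, 62560 to 76010 in IkBaDN and 62850 to 79880 in double transgenic hearts. Every IkBaDN heart lay below every control heart in this sum, and 5 of 5 atrial markers had an estimate below 0 in IkBaDN and in double transgenic hearts, with 0 called. Macrophage marker sums (7 measured of 12 listed) were 2348 to 3010 in control and 2932 to 5135 in TRAF2LC, and 2479 to 3303 and 2503 to 2922 in IkBaDN and double transgenic hearts. Adgre1 and Cd163 were detected on 0 arrays. Smooth muscle and pericyte sums (6 of 7 measured) were 11210 to 14950 in control, 10220 to 14130 in TRAF2LC, 14150 to 25390 in IkBaDN and 20950 to 24280 in double transgenic hearts. Acta2, smooth muscle actin, carried most of this sum and averaged 14.21 on the log2 scale in double transgenic and 13.21 in control hearts (SE of the difference 0.19, adjusted p = 0.014, limma), whereas Myh11, Tagln and Rgs5 had estimates of -0.02, -0.04 and -0.11 and the median of the 6 was 0.08. In TRAF2LC against control hearts 7 of 7 macrophage markers were higher (median 0.40, 1 called). In double transgenic against TRAF2LC hearts 7 of 7 macrophage markers were lower (median -0.42, 1 called). There 6 of 6 smooth muscle and pericyte markers were higher (median 0.34, 1 called). The ventricular and atrial medians there were -0.03 and 0.01, with 0 called. None of the 8 lymphocyte markers was measured. The part of the cell type markers in the changes of the ribosomal genes was not tested. In a piece of ventricle, fewer cells of a type and less RNA per cell cannot be told apart.

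Genes of bacterial descent and mitochondria-specific genes were described separately within each subunit. In TRAF2LC against control hearts 23 of 26 large subunit genes of bacterial descent were below 0, with a median of -0.12, while 8 of 16 mitochondria-specific ones were, with a median of 0.00. The per-array medians of the former were -0.01, -0.10, -0.06 and -0.30 in TRAF2LC, and those of control ran from -0.01 to 0.01. Each gene was taken over its control mean, so the control medians lie near 0 by construction. In the small subunit 10 of 16 and 6 of 10 were below 0, with medians of -0.14 and -0.02. Of all 6902 tested genes, 3619 were below 0 in TRAF2LC hearts. In IkBaDN against control hearts 18 of the 26 large subunit genes of bacterial descent were below 0 (median -0.05). Of the 16 mitochondria-specific ones 7 were (median 0.02), and of all genes 3554. In double transgenic against control hearts the counts were 14, 7 and 3457. None of the 68 genes was called in these comparisons, and the split carries no test. By place in the large subunit, the medians in TRAF2LC hearts were -0.07 for the 3 stalk genes (Mrpl10, Mrpl11 and Mrpl12), -0.18 for 6 genes around the tunnel exit and 0.05 for 6 of the central protuberance. In double transgenic hearts against control they were 0.13, -0.03 and -0.04.

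Of the 68 genes, 51 rest on 1 tested probe and 17 on several. Probes of the same gene often differed in sign at these small changes. The probes had the same sign for 11 of the 17 genes for TRAF2LC, 5 for IkBaDN and 11 for double transgenic hearts against control, and for 8 and 13 in double transgenic against TRAF2LC and IkBaDN hearts. Only Mrps7 and Mrps11 kept 1 sign over their probes in all 6 comparisons. The other 15 were Mrpl1, Mrpl3, Mrpl10, Mrpl33, Mrpl37, Mrpl43, Mrpl48, Mrpl49, Mrps5, Mrps10, Mrps18b, Mrps25, Mrps26, Mrps31 and Mrps33, and no probe of these 17 genes was called. The widest gaps were those of Mrps18b in TRAF2LC (0.16 and -0.42) and of Mrps5 in IkBaDN hearts (0.01 and -0.63). Mrps18a has 1 tested probe, so its change rests on that probe.

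Other genes of mitochondrial translation were looked at beside the ribosomal proteins, with 68 of 115 genes of 6 lists tested and 0 called in any comparison or in the F-test. In double transgenic against TRAF2LC hearts, 10 of these 68 had an unadjusted limma p under 0.05 (15.6% of all probes), and against control the counts were 6 for TRAF2LC (10.7% of all probes), 3 for IkBaDN (7.65%) and 4 for double transgenic hearts (10.8%). Of the 3 measured ribosomal proteins without an Mrp symbol, Dap3, a small subunit GTP-binding protein, had means of 12.13, 11.96, 12.03 and 12.06 in control, TRAF2LC, IkBaDN and double transgenic hearts. The smallest p among 18 genes of ribosome assembly and rRNA modification was that of Rbfa, a small subunit maturation factor. Its means were 10.65, 10.17, 10.57 and 10.60 in the same order, so TRAF2LC was low (-0.48 ± 0.12 against control, adjusted p = 0.0815), and double transgenic hearts were 0.44 ± 0.12 above it (adjusted p = 0.0644). Ppargc1b, a coactivator of mitochondrial biogenesis and 1 of 10 regulators tested, had means of 10.74 in control, 10.66 in TRAF2LC and 11.13 in double transgenic hearts (the last against TRAF2LC 0.47 ± 0.13, adjusted p = 0.0551). Pars2, the mitochondrial prolyl-tRNA synthetase and 1 of 15 such enzymes tested, differed by 0.48 ± 0.15 in that comparison (adjusted p = 0.104). Top1mt, the mitochondrial topoisomerase, differed by 0.44 ± 0.17 (adjusted p = 0.211). Among 11 translation factors the smallest adjusted p there was 0.477.

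The ribosome of the cytosol and the respiratory chain give the background for these medians. Of 55 cytosolic ribosomal protein genes, 27 were below 0 in TRAF2LC against control hearts, with a median of 0.00, and in double transgenic hearts the median was -0.04. Of 70 oxidative phosphorylation genes, 56 were below 0 in TRAF2LC hearts, with a median of -0.10 and 0 called, and in double transgenic hearts 46 were, with a median of -0.06. Mitochondrial ribosomal protein genes stood at 47 of 68 below 0 with a median of -0.08 in TRAF2LC and 33 of 68 with 0.02 in double transgenic hearts. These lists were not tested against each other.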

How the data were processed

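The deposited table holds 1 average signal intensity per probe and array for 25697 probes, with a detection p-value, per the column headers. Values below 0 occur, as after background subtraction, but the headers do not name that step or how the detection p-value was made. The series matrix repeats these intensities, scaled by the authors to 1 mean per array. BeadStudio and GenomeStudio are named in the submitters' processing notes. Intensities were corrected here with nec of limma 3.58.1 (R 4.3.3; offset 16, background from the detection p), quantile normalized and converted to log2. All 16 arrays entered 1 limma fit (lmFit, eBayes) over 9449 probes detected (p under 0.01) on at least 4 arrays, and two-sided p-values were adjusted by Benjamini-Hochberg within each comparison. SEs pool the spread of the 4 genotypes. Genotype labels were not checked, since no source used here says whether the Traf2 and Nfkbia probes read the transgenes. Symbols came from the series' probe table (23978 probes with 1 symbol, 1719 unnamed here). A gene is its brightest tested probe. Genes named are called ones, the 3 higher and 3 lower with the smallest p per comparison, the 3 brightest and dimmest in control per subunit, genes whose probes disagree, and for each further list its smallest p; Mrpl37, Mrpl20, Mrpl3 and the genes listed for arrays without overlap were added after their values were seen. Members and lists were chosen with earlier results of these data known. Deviations of same-numbered arrays from their genotype means correlated at 0.25 to 0.31 in all 4 pairs of TRAF2LC and double transgenic hearts. From these data the replicate number was entered as a block in an alternative fit only, and the main fit holds no pairing. In the other 5 pairs of genotypes 2 or 3 of 4 were over 0.1. Same-numbered TRAF2LC and double transgenic arrays also share a column set of the deposited table, within which their other-numbered pairs correlated at 0.10 to 0.37. The limma script was tested on simulated data. The number of arrays limits the precision. Alternatives are in the closing section.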

Additional observations from a re-analysis of the deposited data

Results flagged for a closer look

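Within a genotype of 4 arrays, the highest or lowest array was checked for a gap to its nearest neighbour that exceeds, as a share of the whole range, Dixon's 95% critical value for 4 samples. Of 132 groups of 4 arrays, those of 31 named genes and both subunit medians, 13 passed, and chance alone gives about 1 in 20. The values are log2 intensities. On TRAF2LC replicate 4, Mrpl14 stood at 10.52 (11.16 to 11.25 on the other 3 arrays) and Mrps11 at 8.89 (9.23 to 9.27), and the median of the large subunit genes was -0.26 over the control mean (-0.02 to 0.02). On IkBaDN replicate 2, Mrps2 stood at 4.78 (6.21 to 6.36) and Mrpl57 at 6.66 (6.06 to 6.16). On double transgenic replicate 1, Mrps5 stood at 8.19 (7.72 to 7.78).

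Single control arrays stood apart for 5 genes. Control replicate 1 was high for Mrpl1 at 10.05 (9.74 to 9.75) and for Mrpl17 at 11.07 (10.74 to 10.77). Control replicate 4 was high for Mrpl12 at 12.45 (12.09 to 12.15) and for Mrpl42 at 13.09 (12.94 to 12.96), and control replicate 3 for Mrps22 at 9.22 (9.12 to 9.13). Mrpl38 was low on TRAF2LC replicate 3 at 11.56 (11.72 to 11.76), and Mrps17 was high on IkBaDN replicate 1 at 11.42 (11.26 to 11.28).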

How the results depend on the processing

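The count of 1 called gene, Mrps18a in double transgenic against TRAF2LC hearts, was the least stable result. It was 0 under median scaling, with the runs of P numbers as a block, with only the 2 genotypes fitted, without both arrays that stand apart (TRAF2LC replicate 4 and IkBaDN replicate 2, an alternative chosen after seeing the data; adjusted p = 0.0709) and without TRAF2LC replicate 2 or 4 or double transgenic replicate 1 or 3, so it ran from 0 to 1 over the arrays left out. Over all pairs of genotypes, 24 correlations of same-numbered arrays ran from -0.29 to 0.41 with a median of 0.25, 16 of them over 0.1, and 9 of 16 arrays correlated best with their own number. With the replicate block 2 genes were called in double transgenic against TRAF2LC hearts, Mrps18a and Mrpl14 (adjusted p = 0.0496), over 317 probes against 275, and the counts of the other comparisons stayed at 0. With the column sets as a block the count stayed at 1, and 128 probes against 80 were called in double transgenic against control hearts. Counts, medians and genes kept their direction and side in 185, 341 and 983 of the recomputed values. Among the rest, 8 counts and 8 genes were weaker, 1 count and 1 gene were stronger, 17 medians moved and 5 genes reversed. All counts but that of double transgenic against TRAF2LC hearts were 0 in the main fit.

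Median scaling moved the median of all genes by 0.14 (TRAF2LC), -0.23 (IkBaDN) and 0.11 (double transgenic) against control, by 0.34 in double transgenic against IkBaDN and by 0.20 in the interaction. The large and small subunit medians became 0.074 and 0.057, -0.28 and -0.25, 0.10 and 0.12, 0.40 and 0.38, and 0.38 and 0.31 in that order, or -0.05 and -0.07, -0.05 and -0.02, -0.01 and 0.01, 0.05 and 0.03, and 0.17 and 0.10 relative to all genes. Median scaling also reversed the sign of Mrps22 in IkBaDN (-0.027), Mrpl57 (0.0086), Mrpl27 (0.23) and Mrpl36 (0.094) in double transgenic against IkBaDN, and Mrpl27 in the interaction (0.0057). The medians of all genes there were -0.23, 0.35 and 0.21. Relative to these, Mrps22 stayed higher and the others stayed lower. The authors' scaled values gave small subunit medians of -0.022 in TRAF2LC against control and 0.090 in double transgenic against IkBaDN. Relative to all genes these were -0.087 and -0.010, beside -0.083 and -0.010 in the main fit. Over the arrays left out, the small subunit median ran from -0.12 to -0.017 in TRAF2LC against control, highest without TRAF2LC replicate 4, and from -0.0080 to 0.085 in double transgenic against TRAF2LC. Without both arrays that stand apart it was -0.017 in TRAF2LC against control, and the interaction medians were 0.038 (large) and -0.011 (small). The cause was not tested. Dim probes limit Mrpl45, Mrpl52, Mrpl57 and Mrps2.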
